A study of Mus musculus with 36 samples.

Results

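The hippocampus of 129S1/SvImJ mice was compared with that of DBA/1J mice, 2 inbred strains, by RNA sequencing of whole tissue. The comparison used 12 of the 36 libraries of a survey of 6 inbred strains: all 6 of 129S1/SvImJ (3 males aged 62 days, 3 females aged 63 days) and all 6 of DBA/1J (the same numbers and ages). Each library held the RNA of both hippocampi of 1 untreated, group-housed animal, and both sexes entered with equal weight. Within a strain, sex went together with 1 day of age and with the spike-in RNA mix, so these cannot be told apart. They were balanced between the strains. Libraries were sequenced in multiplex, and the sources used here do not give the lane of each. No allele was engineered in either strain, so every comparison is of 2 whole genomes at once.

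Inbred mouse strains carry different fixed variants in coding and regulatory sequence, in gene copy number and in whole haplotypes such as the major histocompatibility complex (MHC). The hippocampus, the seat of spatial and episodic memory, holds granule cells of the dentate gyrus, pyramidal cells of the CA fields, interneurons, glia and vessels. It lies against the choroid plexus and the ependyma of the lateral ventricle, which a dissection can take along. In bulk tissue, fewer cells of a type and less RNA per cell cannot be told apart.

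Total counts ran from 18695669 to 27591550 in 129S1/SvImJ and from 16348030 to 26699617 in DBA/1J. Mitochondrial transcripts took 7.85% to 9.51% and 6.28% to 9.62% of them. Pairs of libraries had a median correlation of log2 levels of 0.9888 within a group of strain and sex, 0.9876 across sex within a strain and 0.9719 across the strains (computed over genes, which are no independent replicates). Read level rose with a gene's GC content in all 12 libraries relative to the survey's average, by 0.22 to 0.47 log2 per 10 points of GC in 129S1/SvImJ and by 0.12 to 0.36 in DBA/1J. DBA/1J male replicate 3 stood apart in interferon, complement and microglial genes, and values without it are given beside those results. The excitatory neuron markers reached a summed level of 5630 to 8028 CPM (counts scaled to library size) over the 12 libraries, while only 2 of the 8 pituitary markers could be tested, 1 of them at 0 in all 12 libraries, and these summed to at most 1.49 CPM.

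At an adjusted p under 0.05 (edgeR's quasi-likelihood test, Benjamini-Hochberg over 19702 genes), 8024 genes differed between the strains, which is 40.7% of those tested. Of these, 4195 (21.3%) were higher in 129S1/SvImJ and 3829 (19.4%) were lower. Most differences were small: the median fold was 1.33, and 67.5% of the calls lay under 1.5-fold. At 2-fold or more the balance was toward DBA/1J. There 399 genes (2.03%) were higher in 129S1/SvImJ and 878 (4.46%) lower, 1277 in all (6.48%). Of the 1277, 732 were without overlap between the libraries of the strains. With at least 1 CPM in the higher strain as well, 530 remained, 213 higher and 317 lower. In 3027 genes (15.4%) the 6 libraries of one strain did not overlap the 6 of the other. Genes called higher in 129S1/SvImJ had a median GC content of 51.7%, against 48.5% for those called lower. After each library's trend on GC content and transcript length was removed, 5345 genes were higher and 3094 lower, so the share higher in 129S1/SvImJ moved from 52.7% (over genes with a known GC content) to 63.3%. The median of all genes moved by under 0.1 log2.

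**Figure D1:**
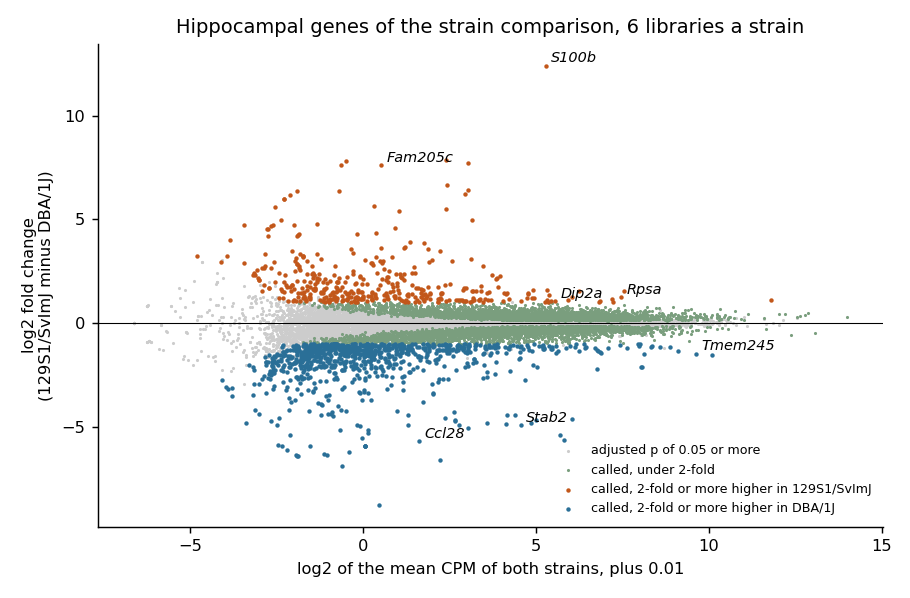
Each point is 1 of the 19702 tested genes; the horizontal axis is the log2 of its mean level over both strains (CPM, plus 0.01) and the vertical axis its log2 fold change, 129S1/SvImJ minus DBA/1J. Coloured points passed the test at 2-fold or more, green points passed below 2-fold, and S100b stands alone at the top.

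S100b, a calcium-binding protein of astrocytes that is also released from them, was present in 129S1/SvImJ and all but missing in DBA/1J. It had 70.7, 77.9 and 83.2 CPM (lowest, median and highest of 6 libraries) in 129S1/SvImJ, against 0, 0 and 0.0452 in DBA/1J. All 6 libraries of 129S1/SvImJ were high and none of DBA/1J was, with 11565 reads in the former and 2 in the latter. The ratio was 5368 (95% interval 1486 to 44332, counting error only; edgeR's adjusted p = 1.94e-30). The gene (ENSMUSG00000033208) lies on chromosome 10, 76253853 to 76261159, plus strand, of GRCm38. Its mean level in the survey's other strains was 68.0 CPM in A/J, 71.8 in C57BL/6J, 59.2 in DBA/2J and 148 in PWD/Ph. DBA/1J was thus the only one of the 6 strains all but without this RNA.

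The 150 bases before the RefSeq start of S100b are shown with those of Ccl28, a chemokine gene that was far lower in 129S1/SvImJ. Both are the RefSeq sequence of GRCm38.p6, read 5′ to 3′ on the gene's strand, and come from the reference strain, not from either strain compared. S100b lies at chr10:76253686-76253835, plus strand, and Ccl28 at chr13:119623669-119623818, plus strand.
S100b: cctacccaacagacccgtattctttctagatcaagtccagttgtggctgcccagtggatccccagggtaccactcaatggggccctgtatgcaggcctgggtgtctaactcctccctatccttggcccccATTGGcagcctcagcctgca
Ccl28: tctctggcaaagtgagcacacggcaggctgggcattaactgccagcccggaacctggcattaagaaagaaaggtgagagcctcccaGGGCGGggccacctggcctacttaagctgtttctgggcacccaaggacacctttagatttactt
Capitals mark matches on either strand to the letters CCAAT, the core of a common promoter element, which S100b holds on the reverse strand. In Ccl28 they mark GGGCGG, the core of the GC box. Of 27025 windows of this length, 25.3% held CCAAT and 29.0% held GGGCGG. Neither window held TATAAA, which 8.08% did. GC content was 58.0% for S100b and 55.3% for Ccl28, with 1 and 3 CG dinucleotides.

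The genes around S100b differed too, in both directions. Dip2a, which encodes a disco-interacting protein, overlaps the 3' end of S100b's span on the opposite strand (76259429 to 76345291). It had 57.2, 64.4 and 66.8 CPM in 129S1/SvImJ against 27.4, 30.0 and 34.2 in DBA/1J, a 2.08-fold difference (log2 1.06 ± 0.06, SE). The libraries of the strains did not overlap, and the other 4 strains had means of 56.5 to 63.0 CPM. The authors' deposited FPKM ran the other way, at 12.4 ± 1.21 (SD, n = 6) in 129S1/SvImJ and 14.7 ± 1.56 in DBA/1J, so the direction for Dip2a depends on which of the deposited measures is read. Among other neighbours, chosen after their values were seen, the arginine methyltransferase Prmt2 was higher in 129S1/SvImJ (70.6 ± 4.58 against 46.5 ± 3.80 CPM, SD, n = 6) and the centrosomal gene Pcnt lower (31.3 ± 2.96 against 36.8 ± 3.83). The predicted model Gm16240, inside Dip2a on the other strand, was lower (1.54 ± 0.331 against 2.99 ± 0.313). The sources used here do not give the strand setting of the counts, so reads of overlapping genes may not be separated.

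Other genes were far lower in DBA/1J. Fam205c, a member of a family with nearby copies, had 1.59, 2.54 and 4.64 CPM in 129S1/SvImJ and 0, 0 and 0.0710 in DBA/1J, or 427 reads against 2 (ratio 198, 95% interval 54.5 to 1642, counting error only). It was listed at a mean of 0 CPM in DBA/2J and at 5.58 in A/J. Gdpd3, a lysophospholipase D of the glycerophosphodiester family, had 5.18, 5.78 and 8.84 CPM against 0.268, 0.400 and 0.572 (log2 3.88 ± 0.24). Every library of 129S1/SvImJ lay above every one of DBA/1J. Its means in the other 4 strains ran from 0.102 to 0.317 CPM, so 129S1/SvImJ stood alone there. Fxyd2, which modulates the sodium pump, gave the same picture, with 6.89 to 9.77 CPM in 129S1/SvImJ against 0.580 to 0.927 in DBA/1J (log2 3.48 ± 0.19) and at most 1.73 in the means of the others. So did Stbd1, which tethers glycogen to membranes, with 8.84 to 12.2 against 1.13 to 1.5 CPM (log2 2.97 ± 0.14).

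The carbohydrate kinase Fggy showed another pattern, high in some of the other strains. It had 3.76, 4.22 and 4.98 CPM in 129S1/SvImJ against 0.143, 0.396 and 0.452 in DBA/1J (log2 3.66 ± 0.22). The strains did not overlap, and DBA/2J stood at 0.0427 CPM, C57BL/6J at 4.72 and PWD/Ph at 5.56. Leaving out pseudogenes and predicted models, some of which differed more, the remaining 6 of the 12 genes with the largest difference in this direction were Sbsn, the secreted phospholipase Pla2g2f, the scaffold gene Pdzd3, the kallikrein Klk10, the aldehyde oxidase Aox4 and the steroid dehydrogenase Akr1c14. Their log2 differences ran from 2.44 to 3.62 and their 129S1/SvImJ medians from 1.93 to 4.45 CPM. edgeR's adjusted p for the 12 lay at 6.17e-08 or below.

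Genes far lower in 129S1/SvImJ included a scavenger receptor and 2 chemokines. Stab2 encodes stabilin-2, the hyaluronan receptor of sinusoidal endothelium, which clears hyaluronan from blood. It had 1.18, 1.49 and 2.04 CPM in 129S1/SvImJ against 33.0, 39.7 and 70.1 in DBA/1J (log2 -4.92 ± 0.18; edgeR's adjusted p = 5.54e-20). All 6 DBA/1J libraries were high, and of the other strains only DBA/2J was, at a mean of 40.3 CPM against 0.428 to 1.23. Stab2 lies on chromosome 10, 86841198 to 87008025 of GRCm38, minus strand.

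Ccl28, a chemokine of mucosal surfaces, had 0, 0.196 and 0.457 CPM in 129S1/SvImJ against 3.51, 5.96 and 8.25 in DBA/1J (log2 -5.70 ± 0.38). The strains were far from overlapping. C57BL/6J and A/J resembled DBA/1J (6.57 and 5.26 CPM), while DBA/2J was low (0.552). Ccl6, a chemokine of myeloid cells, had 0.254, 0.393 and 0.510 against 2.14, 2.55 and 5.22 CPM (log2 -2.98 ± 0.22). It was high in DBA/2J too, at 4.13 CPM.

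Also lower in 129S1/SvImJ without overlap were the immune receptor gene Cd300lg (median 0.385 against 5.52 CPM), the secreted matrix regulator Cthrc1 (0.367 against 3.99), the endothelial lipase Lipg (0.519 against 3.99) and the olfactory receptor gene Olfr287 (0.192 against 3.58). Their log2 differences ran from -2.85 to -4.22. Cthrc1 was low in PWD/Ph as well (0.364 CPM) and at 3.16 to 4.70 in the other 3 strains.

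**Figure D2:**
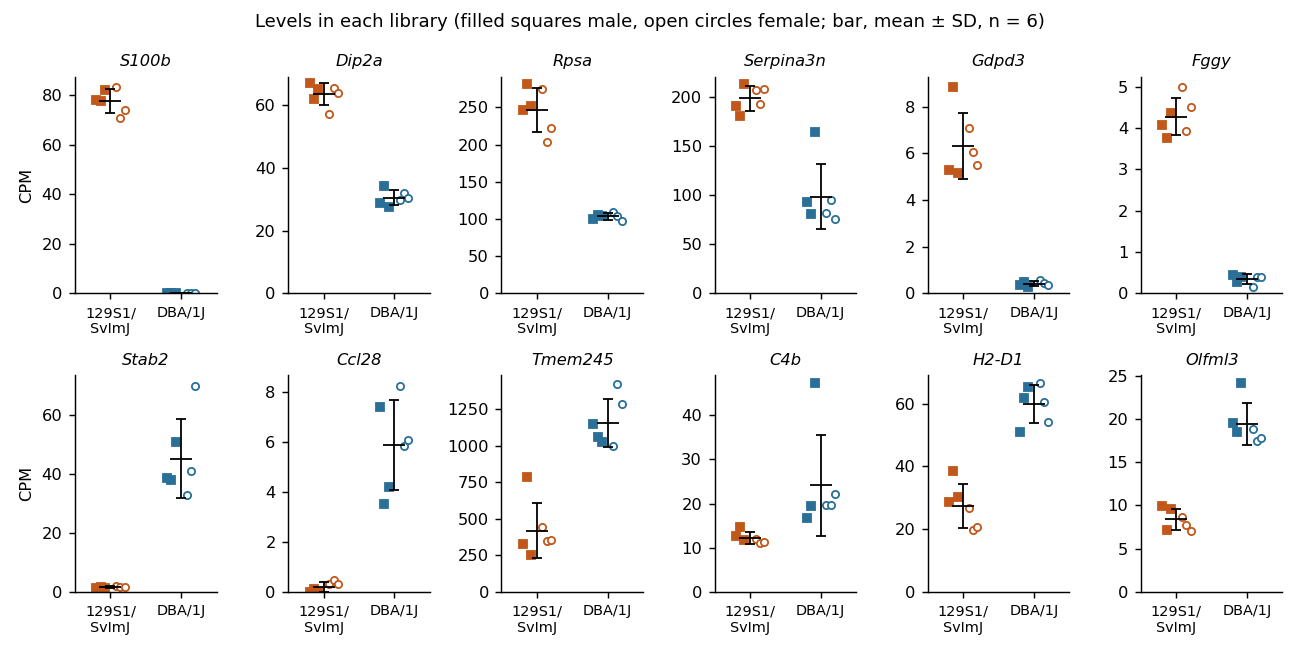
CPM of 12 genes in each library; filled squares are males, open circles females, and bars give the mean ± SD of the 6 libraries of a strain. S100b sits at 70.7 to 83.2 CPM in 129S1/SvImJ and at the axis in DBA/1J, Stab2 the reverse, and DBA/1J male replicate 3 lies far above its strain in Serpina3n (164 CPM) and C4b (47.2 CPM).

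Among the most abundant RNAs with a 2-fold difference or more, 3 ribosomal protein genes were higher in 129S1/SvImJ. Cytosolic ribosomal protein genes were not counted as a list here, so a shift of the whole class was not tested. Rpsa, a protein of the small ribosomal subunit, had 204, 249 and 282 CPM against 97.7, 104 and 110 (log2 1.25 ± 0.07). Rps2 and Rps18, of the same subunit, were higher by log2 1.14 ± 0.08 and 1.07 ± 0.08. None of the 3 overlapped between the strains. All have processed copies in the genome, and the copy Rpsa-ps5 itself had 13.4 to 19.4 CPM in 129S1/SvImJ against 0 to 0.223 in DBA/1J, so reads may be split between a gene and its copies. Rpsa-ps5 was at 15.2 CPM in A/J, 14 in C57BL/6J and 0.0104 in DBA/2J. Rpsa was at 184, 169 and 77.4 CPM in these strains. PWD/Ph is not given here, and a link between the levels of the gene and its copy was not tested.

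Serpina3n, a secreted serine protease inhibitor that reactive astrocytes make, had 180, 200 and 213 CPM in 129S1/SvImJ against 75.3, 87.6 and 164 in DBA/1J (log2 1.03 ± 0.13). The strains did not overlap, and without the high library, DBA/1J male replicate 3, the difference was log2 1.21. The nuclear RNA Neat1, the scaffold of paraspeckles, had 65.1, 92.9 and 196 CPM against 21.5, 35.8 and 64.8 (log2 1.57 ± 0.20). The highest DBA/1J library, again male replicate 3, came to just below the lowest of 129S1/SvImJ. Cdr1, which lies wholly within another annotated exon and is listed here as counted, was higher by log2 1.04 ± 0.14.

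On the other side stood Tmem245, a membrane protein gene and host of a microRNA. It had 251, 352 and 787 CPM in 129S1/SvImJ against 999, 1103 and 1420 in DBA/1J (log2 -1.47 ± 0.20). The strains did not overlap, with 129S1/SvImJ male replicate 2 nearest to DBA/1J, and the means of the other 4 strains lay at 264 to 340 CPM. The cell cycle transcription factor E2f1 had 14.4, 24.3 and 39.2 against 44.3, 61.3 and 109 CPM (log2 -1.46 ± 0.18). Fgd4, a guanine nucleotide exchange factor, and the receptor genes Olfr613 and Vmn1r58 were lower by log2 1.02 to 1.21. After the GC and length correction these 3 stood at log2 -0.86, -0.77 and -0.74. In 129S1/SvImJ all 3 were highest in male replicate 2 (244, 139 and 58.7 CPM). Whether the reads listed for the 2 receptor genes come from those genes was not tested. Rn7s6, a copy of the signal recognition particle RNA, had 7.80 to 102 against 132 to 222 CPM and, as one of many copies, is uncertain.

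Small nucleolar RNAs differed by 2-fold or more in 102 of 220 tested (46.4%), against 4.32% of protein-coding genes. Many such RNAs guide chemical modification of ribosomal RNA. Of the 102, 77 were lower in 129S1/SvImJ and 25 higher. A run of similar copies on chromosome 7, described below, held 45 of the 102. It held 22 of the 77 lower and 23 of the 25 higher, so much of the count comes from 1 locus. Snord55 had 1.27, 2.43 and 3.00 CPM in 129S1/SvImJ against 8.75, 109 and 178 in DBA/1J (log2 -5.38 ± 0.47). The strains did not overlap, although DBA/1J alone spanned 8.75 to 178 CPM. Snord35a (median 0.309 against 3.23 CPM) and Snord110 (0.150 against 1.81) were lower as well, by log2 3.17 and 3.34. Libraries were made after mRNA isolation, which does not target these RNAs. Such RNAs are shorter than most sequenced fragments and lie in introns of other genes, which their counts may share. The 5S ribosomal RNA copy n-R5s118 had 0 to 0.102 against 1.38 to 3.05 CPM, and it shares its reads with identical copies.

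Genes with 2-fold differences were unevenly spread. Chromosome 14 held the highest share of its tested genes among the autosomes and X (11.2%), followed by 7 (8.90%), 2 (8.57%) and 4 (8.22%). Chromosomes 8 (3.42%) and 10 (3.81%), the latter the home of S100b and Stab2, held the lowest. Part of the high shares came from dense windows described below. These held 45 of the 129 such genes of chromosome 7 and 17 of the 112 of chromosome 4. On chromosome 14 a pair of windows held 13 and 12 of 78.

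**Figure D3:**
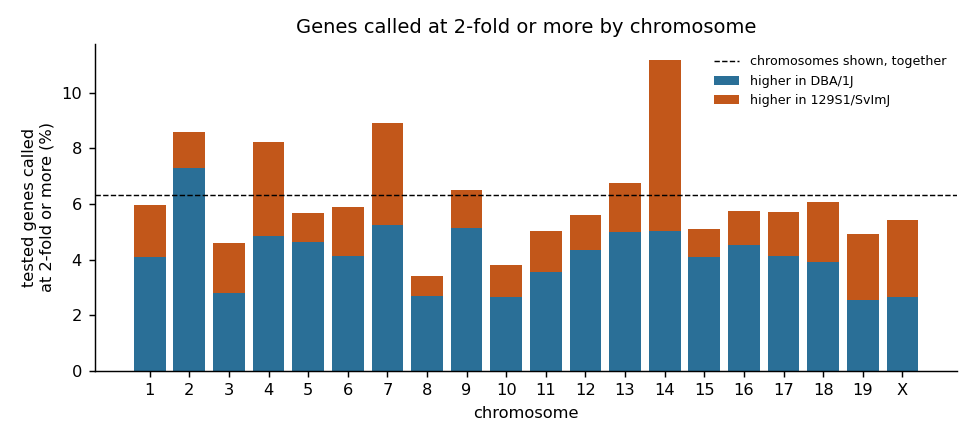
Percentage of the tested genes of each chromosome that were called at 2-fold or more, split by direction; the dashed line is the share over the chromosomes shown. Chromosome 14 reaches 11.2% and chromosome 8 stays at 3.42%.

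In windows of 1000000 bases, the densest run lay on chromosome 7 (59347337 to 60347336), with 45 of 73 tested genes at 2-fold or more. All 45 were small nucleolar RNAs, 23 higher and 22 lower in 129S1/SvImJ, and 44 of them were predicted models. The named one, Snord116l9, of the brain-expressed SNORD116 cluster that lies in the Prader-Willi region in human, had 17 reads in DBA/1J and 2 in 129S1/SvImJ. Its copies are near-identical, so the split of reads among them is uncertain.

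The window on chromosome 4 (41903610 to 42903609) held 17 such genes of 27, 14 of them higher in 129S1/SvImJ. It carries repeated chemokine and Fam205 copies. The skin-type chemokine copy Ccl27b had 44 reads in 129S1/SvImJ and none in DBA/1J, at least 13.6-fold higher with a floor of 3 counts over the group. Ccl21a, a chemokine of lymphoid tissue, was lower in 129S1/SvImJ (0 to 0.609 against 0.497 to 1.07 CPM, log2 -2.09 ± 0.53). Fam205a1, beside Fam205c, was higher by log2 1.83 ± 0.52. A pair of windows on chromosome 14 (3049285 to 4049284 and 5050629 to 6050628) held 13 of 17 and 12 of 16, all predicted models.

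The MHC window on chromosome 17 (34956436 to 35956435) held 14 of 71, and all 14 were lower in 129S1/SvImJ. H2-D1, a classical class I gene that presents peptides to cytotoxic T cells, had 19.5, 27.6 and 38.3 CPM in 129S1/SvImJ against 51.0, 61.2 and 66.6 in DBA/1J (log2 -1.16 ± 0.10; edgeR's adjusted p = 2.82e-10). The strains did not overlap, and the other 4 had means of 17.4 to 23.7 CPM. The inducible chaperones Hspa1b and Hspa1a, near-identical genes whose reads cannot be fully separated, had medians of 21.9 and 21.2 against 50.5 and 45.8 CPM. Their log2 differences were -1.21 ± 0.16 and -1.09 ± 0.17, and the other 4 strains ran from 8.42 to 20.7 CPM. The class I genes H2-Q1 and H2-Q2, the lymphotoxin gene Lta and the microglial gene Aif1 were lower by log2 1.30, 1.48, 2.82 and 1.32. H2-Q2 overlapped between the strains. In males it had 0.711 to 0.941 CPM in 129S1/SvImJ against 0.542 to 1.25 in DBA/1J, and in females 0.0363 to 0.327 against 0.925 to 1.18. Lta was near the floor, with 0 to 3 reads a library in 129S1/SvImJ and 3 to 15 in DBA/1J. DBA/1J thus had the highest mean of the 6 strains for H2-D1, Hspa1a, Hspa1b and Aif1.

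The survey's other strains placed these differences. Of the 530 genes with a 2-fold difference, at least 1 CPM and no overlap, DBA/2J was nearer to DBA/1J in 400 (75.5%), C57BL/6J in 333 (62.8%), A/J in 302 (57%) and PWD/Ph in 269 (50.8%). In 46 genes all 4 other strains were nearer to 129S1/SvImJ, as for S100b, and in 139 all were nearer to DBA/1J, as for Gdpd3. These counts are a description, without a test.

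Counts for gene lists are to be read against all genes, of which 21.3% were higher and 19.4% lower. Of the 40 lists, the nuclear-encoded subunits of the mitochondrial respiratory chain had the largest share called, 77.4%. Of 62 tested members 47 were higher in 129S1/SvImJ and 1 lower, with a median log2 of 0.32 against 0.0037 over all genes. The steps were small and shared. Ndufa4, a subunit of the chain's terminal oxidase, had 123, 139 and 165 CPM against 70.2, 92.0 and 106 (log2 0.64 ± 0.08). The complex I subunit Ndufb4 and the cytochrome oxidase subunits Cox7b and Cox5b were higher by log2 0.64, 0.61 and 0.61, each without overlap. Their summed level was 6344 to 8117 CPM in 129S1/SvImJ and 5037 to 6385 in DBA/1J, which just overlapped. Without DBA/1J female replicate 3, the lowest library, 38 were higher.

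Transcripts made in the mitochondrion itself were higher in 7 of 15 and lower in 1. mt-Co3, a cytochrome oxidase subunit, had 7861, 8479 and 10156 CPM against 5279, 5845 and 7846 (log2 0.49 ± 0.09), with the ranges only just apart. mt-Nd3, of complex I, was higher by log2 0.77 ± 0.15 with overlap. The ribosomal RNA mt-Rnr2, chosen after its value was seen, was the one lower. After the GC and length correction, 14 of the 15 were higher and none lower.

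Glutathione and detoxification enzymes were higher in 24 of 38 members and lower in 1, with a median log2 of 0.33. Cbr1, a carbonyl reductase, had 46.4, 53.7 and 60.8 CPM against 19.8, 27.6 and 29.8 (log2 1.00 ± 0.08). The strains were well apart, and the means of the other 4 strains were 23.4 to 37.5 CPM. The glutathione transferases Gstm5 and Gstm7 were higher by log2 0.74 ± 0.07 and 0.97 ± 0.09. Glo1, which detoxifies methylglyoxal and varies in copy number among inbred strains, was higher by log2 0.38 ± 0.06, with overlap. Gstm genes resemble each other, so their split of reads is uncertain.

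Myelin and oligodendrocyte genes were higher in 11 of 18 and lower in none, with a median log2 of 0.28. Mog, on the myelin surface, had 41.0, 55.0 and 83.9 CPM against 22.5, 30.5 and 32.7 (log2 0.99 ± 0.12). The strains did not overlap, and the highest library was 129S1/SvImJ male replicate 2. Mbp, a main myelin protein, was higher by log2 0.56 ± 0.11, Cnp by 0.55 ± 0.10 and Opalin by 0.64 ± 0.12, the latter 2 with overlap. The list's sum was 3901 to 7118 CPM in 129S1/SvImJ and 3515 to 4174 in DBA/1J. Without 129S1/SvImJ male replicate 2, the highest, 7 genes were higher.

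Markers of excitatory neurons were higher in 4 of 8 and lower in none. Camk2a, a kinase of the postsynaptic density, had 4449, 4889 and 5029 CPM against 3293, 3571 and 3736 (log2 0.44 ± 0.06) without overlap. The neurogenic factors Neurod2 and Neurod6 and the calmodulin-binding Nrgn were higher by log2 0.32 to 0.34, each with overlapping libraries. The CA1 markers Lefty1, Wfs1 and Fibcd1 were higher as well, 3 of 8 with none lower. Wfs1, an endoplasmic reticulum protein, had 167, 213 and 230 against 92.9, 125 and 145 CPM (log2 0.75 ± 0.15). Of 11 markers of CA2 and CA3, 5 were higher and 1 lower. The lower one, Iyd, an iodotyrosine deiodinase, had 0.654, 1.11 and 1.40 against 3.83, 4.71 and 5.76 CPM (log2 -2.14 ± 0.18), with a wide gap between the strains. Dentate granule cell markers were split, with 1 higher (Tdo2, which degrades tryptophan, log2 0.62 ± 0.14) and 3 lower of 10, or 2 and 2 after the GC and length correction.

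Ion channels and receptors shifted with GC content. Potassium channel genes were higher in 7 (4 without 129S1/SvImJ male replicate 3) and lower in 17 of 55 as counted, but higher in 14 and lower in 11 after the correction. Sodium and calcium channel genes went from 6 higher and 13 lower of 33 (8 lower without 129S1/SvImJ female replicate 1) to 11 and 6, glutamate receptors from 1 and 10 of 25 to 5 and 5 (6 lower as counted without 129S1/SvImJ male replicate 2), and vesicle release genes from 10 and 14 of 46 to 10 and 6. The direction of these lists therefore depends on the correction. Single members that kept their call and direction under it are given next.

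Kcnk2, a leak potassium channel, had 30.6, 32.2 and 34.8 CPM against 39.3, 45.5 and 52.7 (log2 -0.50 ± 0.07, -0.48 after the correction). The strains were apart. Kcnn2, a calcium-activated potassium channel, was higher in 129S1/SvImJ, with 64.4, 73.9 and 76.4 against 49.4, 53.0 and 57.1 CPM (log2 0.45 ± 0.07). Scn4b, an auxiliary sodium channel subunit, was higher by log2 0.63 ± 0.10 and Cacng2 (stargazin, which carries AMPA receptors to the synapse) by 0.32 ± 0.06. The sodium channel Scn2a was lower by log2 0.44 ± 0.07.

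Of the GABA receptor genes 3 were higher and 2 lower of 17, or 7 and 2 after the correction. Without 129S1/SvImJ male replicate 2 there were 5 higher, and without male replicate 3 there were 4 lower. Gabrb1, the beta 1 subunit, had 50.2, 61.4 and 73.3 CPM against 93.4, 105 and 134 (log2 -0.81 ± 0.07, -0.48 after the correction). No library of 129S1/SvImJ reached the lowest of DBA/1J, and the other 4 strains had means of 103 to 128 CPM. Gabbr1, a subunit of the metabotropic GABA receptor, was higher by log2 0.26 ± 0.05 without overlap. Among vesicle genes, the syntaxin-binding Stxbp2 had 14.7, 17.2 and 22.4 against 29.2, 32.1 and 34.0 CPM (log2 -0.84 ± 0.08). The synaptic SNARE gene Vamp1 ran the other way, with 125, 133 and 142 against 91.0, 100 and 104 CPM (log2 0.43 ± 0.05). The vesicle GTPase Rab3b and the calcium sensor Syt2 were lower by log2 0.75 ± 0.10 and 0.57 ± 0.08.

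**Figure D4:**
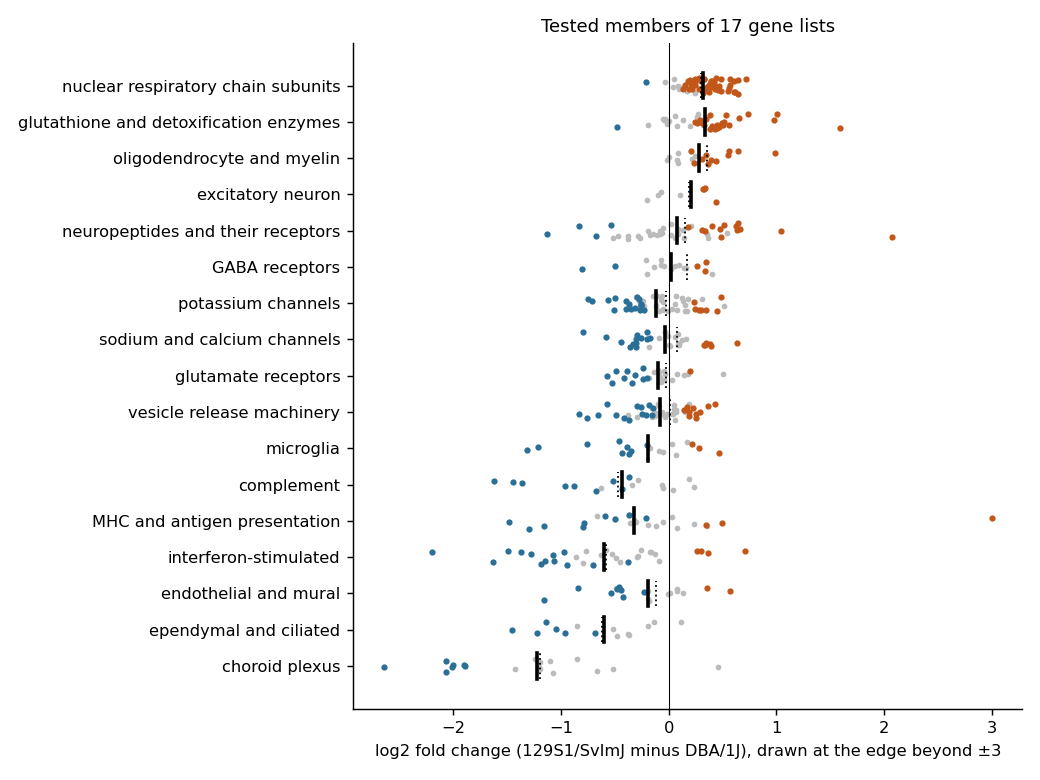
Log2 fold change (129S1/SvImJ minus DBA/1J) of the tested members of 17 gene lists; orange and blue points passed the test, grey points did not, the solid bar is the list's median and the dotted bar its median after the GC and length correction. Respiratory chain genes lie to the right with a median of 0.32 and choroid plexus genes to the left with a median of -1.22.

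Of 42 neuropeptide genes and their receptors 13 were higher and 4 lower in 129S1/SvImJ. The share called, 40.5%, was near the 40.7% of all genes, and the median log2 was 0.075. Pdyn, the precursor of dynorphins, had 10.4, 11.6 and 12.3 CPM against 3.84, 6.08 and 6.46 (log2 1.04 ± 0.11; edgeR's adjusted p = 3.36e-09). The strains were apart, and the other 4 had means of 7.05 to 13.3. Cck, the precursor of cholecystokinin, had 209, 275 and 322 against 141, 172 and 190 CPM (log2 0.65 ± 0.09), above the means of the other 4 strains (125 to 181). Sst, which encodes somatostatin and marks a class of interneurons, was higher by log2 0.64 ± 0.12 without overlap. Gal, the galanin precursor, was low in both, at 0.406 to 0.858 against 0.0578 to 0.244 CPM (log2 2.08 ± 0.35). The neurotensin receptor of astrocytes, Ntsr2, was higher by log2 0.66 ± 0.08.

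Other interneuron markers went the other way. Kit, a receptor kinase, had 47.9, 63.5 and 75.6 CPM against 93.2, 97.4 and 102 (log2 -0.64 ± 0.08), and Nos1, the neuronal nitric oxide synthase, was lower by log2 0.42 ± 0.06. Neither overlapped. The list of 20 had 7 higher and 4 lower. Of 15 astrocyte markers 4 were higher, S100b among them, and 6 lower. Glul, glutamine synthetase, had 1025, 1071 and 1120 against 711, 764 and 918 CPM (log2 0.44 ± 0.06). The water channel Aqp4 was lower by log2 0.62 ± 0.10, without overlap.

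Clock genes were higher in 7 and lower in 4 of 18, or 7 and 1 after the GC and length correction. The repressor Bhlhe40 had 83.3, 96.7 and 99.5 CPM against 62.3, 67.9 and 69.1 (log2 0.50 ± 0.06), with a gap, and the clock output gene Dbp was higher by log2 0.71 ± 0.10 with overlap. The sources used here do not give the hour of collection. Of 22 immediate early genes 2 were higher, the prostaglandin synthase Ptgs2 (log2 0.97 ± 0.13) and the MAP kinase phosphatase Dusp6 (log2 0.42 ± 0.07), and 2 were lower. These counts were 3 and 1 after the GC and length correction.

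Lysosomal genes were higher in 10 and lower in 1 of 40, a share called of 27.5% against 40.7% of all genes. After the GC and length correction they counted 15 higher and 5 lower, and without 129S1/SvImJ female replicate 1 there were 3 lower. Among them the protease Ctsf and the thioesterase Ppt1 were higher by log2 0.32 ± 0.07 and 0.25 ± 0.05. Cholesterol synthesis genes were higher in 9 and lower in 3 of 24, and higher in 6 without 129S1/SvImJ female replicate 1. Fdps, which makes farnesyl pyrophosphate, was higher by log2 0.33 ± 0.07. Of 15 heat shock genes 1 was higher and 4 lower, among them the small chaperone Cryab (log2 -0.68 ± 0.12). Of 21 endoplasmic reticulum stress genes 2 were higher, Herpud1 among them (log2 0.49 ± 0.07), and 6 lower. After the GC and length correction that list counted 3 higher and 3 lower, and on FPKM plus 1 it counted 2 and 2. Of 10 neurotrophin genes 3 were higher and 2 lower, with the growth factor Ntf3 at log2 0.51 ± 0.12 and the receptor Ngfr at -0.83 ± 0.20. Receptors for monoamines, acetylcholine and opioids counted 4 higher and 5 lower of 42, or 8 and 2 after the GC and length correction, and 3 lower as counted without 129S1/SvImJ female replicate 1. The nociceptin receptor Oprl1 was higher by log2 0.39 ± 0.06 and the nicotinic subunit Chrna4 lower by 0.54 ± 0.11. Synaptic adhesion genes counted 2 higher and 4 lower of 24, or 7 and 2 after that correction.

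Of 4 lists of immune genes, each had more members lower than higher in 129S1/SvImJ. Interferon-stimulated genes, the antiviral set induced by interferons, were lower in 13 and higher in 4 of 32, with a median log2 of -0.60, or -0.30 without DBA/1J male replicate 3. In that library their sum was 277 CPM, against 139 to 153 in the other 5 of DBA/1J and 131 to 163 in 129S1/SvImJ. Ifit3, an antiviral effector, had 4.09, 4.34 and 5.76 CPM against 8.05, 8.80 and 29.7 (log2 -1.37 ± 0.22). The guanylate-binding protein Gbp2 had 1.14, 1.59 and 1.79 against 2.43, 2.72 and 19.9 CPM (log2 -1.63 ± 0.33), and Gbp3 was lower by log2 1.19 ± 0.22. No library of DBA/1J fell among those of 129S1/SvImJ for the 3 genes. Without male replicate 3 they stood at log2 -0.95, -0.81 and -0.76, each still past the test, and the list then counted 13 lower and 4 higher.

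Complement genes were lower in 9 of 17 and higher in none, or lower in 6 and higher in 1 without that library, and lower in 5 on FPKM plus 1. C4b, a central component of the classical pathway, had 11.2, 11.8 and 14.8 CPM against 16.7, 19.6 and 47.2 (log2 -0.97 ± 0.18, -0.66 without male replicate 3). Cd59a, which shields cells from lysis by complement, had 2.53, 3.36 and 5.33 against 7.08, 9.77 and 10.5 CPM (log2 -1.36 ± 0.17). In both genes the strains did not overlap. C4b and C4a are close copies whose reads may be split. C1qb, of the recognition subunit C1q, was lower by log2 0.44 ± 0.09 with overlap.

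Microglial markers were lower in 9 and higher in 3 of 18, and lower in 8 without that library. After the GC and length correction 5 were higher and 9 lower. Olfml3, a secreted protein of resident microglia, had 7.07, 8.19 and 9.96 CPM against 17.5, 18.7 and 24.2 (log2 -1.21 ± 0.09). Aif1 (IBA1, the usual stain for microglia) had 1.96, 2.73 and 3.05 against 5.03, 6.67 and 7.45 CPM (log2 -1.32 ± 0.12). Both were apart between the strains, while the list's sum of 341 to 389 against 386 to 454 CPM overlapped. The integrin Itgam was lower by log2 0.76 ± 0.12, with 68.7% of its exonic bases shared with another gene, and the chemokine receptor Cx3cr1 by 0.39 ± 0.07.

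In the MHC and antigen presentation list 9 were lower and 3 higher of 25, or 7 and 4 without DBA/1J male replicate 3. The class II gene H2-Eb1 had 0.544, 1.42 and 3.10 CPM in 129S1/SvImJ against 0.0578, 0.126 and 0.223 in DBA/1J (log2 3.4 ± 0.45). It thus ran against H2-D1, with no overlap. The peptide transporter Tap1 was lower by log2 0.79 ± 0.17 and the class II chaperone H2-DMa higher by 0.49 ± 0.10. MHC genes differ in sequence between haplotypes, and reads were aligned to 1 reference genome.

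Vessel markers were lower in 8 and higher in 2 of 19. Kdr, a receptor for vascular endothelial growth factor, had 6.78, 8.07 and 9.34 CPM against 16.8, 18.2 and 18.7 (log2 -1.16 ± 0.12). The pericyte gene Rgs5 had 70.0, 75.8 and 80.3 against 120, 135 and 151 CPM (log2 -0.84 ± 0.07). Flt1, another receptor of that growth factor, was lower by log2 0.54 ± 0.06, and the endothelial surface gene Ly6c1 was higher by 0.57 ± 0.10. All 4 were without overlap, and for Kdr and Rgs5 129S1/SvImJ had the lowest mean of the 6 strains.

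Choroid plexus markers were lower in 7 and higher in none of 18, with a median log2 of -1.22. The strains overlapped widely: the sum of the markers ran from 163 to 3019 CPM in 129S1/SvImJ and from 742 to 3379 in DBA/1J. Male replicates 1 and 2 were the high libraries of 129S1/SvImJ, and its other 4 lay at 163 to 811. Prlr, the prolactin receptor, had 3.46, 7.57 and 27.1 against 17.7, 43.3 and 102 CPM (log2 -2.0 ± 0.54), with overlap. Leaving out 1 library at a time, between 3 and 10 markers were lower, the fewest without DBA/1J female replicate 3. The cation channel Trpv4, Tmem72 and the coagulation factor F5 were lower by log2 2.07, 2.65 and 2.01, again with overlap.

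Genes of the ependyma, the ciliated lining of the ventricles, were lower in 6 and higher in none of 14, or lower in 3 on FPKM plus 1. The axonemal dynein Dnah5 had 2.34, 3.30 and 4.64 CPM against 7, 7.51 and 8.05 (log2 -1.14 ± 0.14), apart between the strains. Dnah11, Spef2 and Cfap44, also parts of motile cilia, were lower by log2 1.45, 1.05 and 0.96 without overlap. The list summed to 39.4 to 66.8 against 66.4 to 91.0 CPM. In 129S1/SvImJ the highest of these sums were in male replicates 1 and 2, the libraries with the most choroid plexus RNA. Single genes did not all follow the sum. Dnah5 was lowest in male replicate 2 (2.34 CPM) and highest in female replicate 2 (4.64), while Dnah11 was highest in male replicate 2 (1.83). The part of dissection in either list was not tested.

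**Figure D5:**
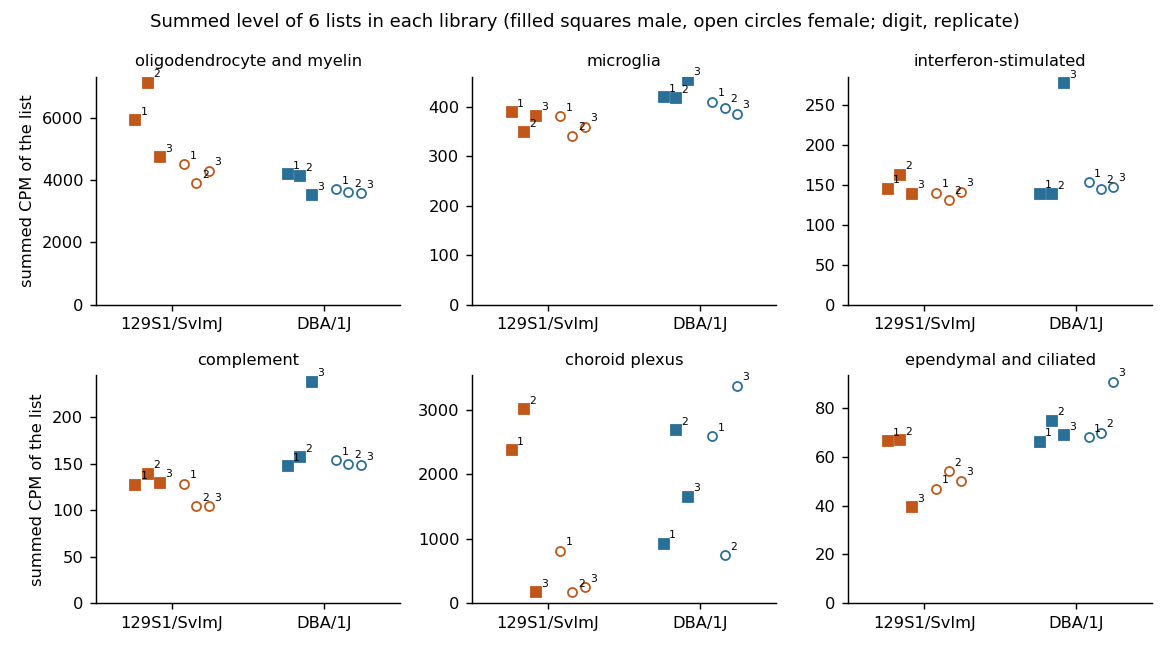
Summed CPM of 6 gene lists in each library (filled squares male, open circles female, the digit is the replicate). DBA/1J male replicate 3 stands at 277 CPM in the interferon panel, 129S1/SvImJ male replicate 2 at 7118 in the myelin panel, and the choroid plexus panel overlaps between the strains.

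Of the genes known to vary in RNA among inbred strains, 30 of 33 could be tested, and 5 were higher and 7 lower in 129S1/SvImJ. The share called, 40%, was near the 40.7% of all genes. S100b, Lefty1, Glo1 and the stereocilia cadherin Cdh23 were among the 5. Lefty1, a signalling inhibitor of the TGF-beta family, had 11.6, 12.5 and 13.1 CPM against 5.22, 5.29 and 6.19 (log2 1.20 ± 0.10) and a mean of 0.0594 in A/J. Nnt, the mitochondrial transhydrogenase whose gene is truncated in C57BL/6J, had 16.7, 17.9 and 19.4 against 26.6, 28.1 and 32.3 CPM (log2 -0.67 ± 0.07). Neither gene overlapped between the strains. Of Nnt's exonic bases, 47.4% are shared with another annotated gene.

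Alad, a heme synthesis enzyme in a segment that is duplicated in some strains, and its neighbour Hdhd3 were lower by log2 0.49 ± 0.08 and 0.40 ± 0.12. Disc1, a psychiatric candidate gene in which 129 strains carry a deletion in the coding sequence, had 0.735, 1.23 and 2.17 against 1.94, 2.37 and 2.93 CPM (log2 -0.74 ± 0.19), with overlap. The potassium channels Kcnj9 and Kcnj10 were lower by log2 0.26 and 0.25, the latter at -0.07 and no longer past the test (edgeR's adjusted p = 0.440) after the GC and length correction. The seventh lower gene was H2-D1.

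Variants known from C57BL/6J or DBA/2J left no called difference in several genes. Gabra2, a GABA receptor subunit that is low in C57BL/6J (61.9 CPM), had 113, 151 and 173 CPM in 129S1/SvImJ against 117, 148 and 153 in DBA/1J (log2 0.06 ± 0.08). Wdfy1, also low in C57BL/6J (19.9 CPM), stood at log2 -0.01 ± 0.06. Gpnmb, the pigment gene that is cut short in DBA/2J (0.251 CPM), had 1.76 to 2.90 against 1.54 to 2.86 CPM (log2 0.21 ± 0.22). Pttg1, the securin gene, which was high in C57BL/6J (15.3 CPM), was at medians of 0.355 and 0.267. For each of the 4 the libraries of the compared strains overlapped.

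The strain difference was examined in each sex. In males 5192 genes differed (26.4%) and in females 4653 (23.6%). Of the genes called in both, 2751 had the same sign and 3 opposite signs, and 1275 of the 1277 genes with a 2-fold difference ran the same way in both sexes. No gene passed edgeR's test for a strain difference that itself differed between the sexes (0 of 19702, 0%). At an unadjusted p under 0.05 there were 1575 (7.99%), and DESeq2 and limma called 0 as well. With 3 libraries per strain and sex, such differences can be missed, so their absence was not shown. Among the genes with the smallest p, Mmp14, a membrane matrix protease, had a strain difference of log2 -0.11 in males and -0.84 in females, and the interferon-induced GTPase Tgtp2 one of -0.50 and -2.85 (edgeR's adjusted p = 0.606 for the difference between sexes, for each). The olfactory genes Omp and Stoml3 were high in 1 library, DBA/1J female replicate 1 (5.64 and 4.29 CPM).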

How the data were processed

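RNA of the hippocampus of 36 mice was sequenced, and 12 libraries entered the comparison. The deposited tables give raw read counts and FPKM per gene and library, per the file headers. Per the submitters' processing notes the genome build was GRCm38 (mm10), and the tools named are Cufflinks 2.1.1, DESeq2 1.8.1, TopHat2 2.0.13, Trimmomatic 0.32 and SAMtools. The counter, strand setting and annotation release were not given in the sources used here.

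Here, counts of 37315 genes were joined by Ensembl ID. The 19702 genes that passed a low-count filter (at least 10 counts, scaled to depth, in as many libraries as the smallest group, and 15 in total) were fitted with edgeR 4.0.16 (quasi-likelihood F test, TMM scaling, R 4.3.3) on all 36 libraries with 1 mean per strain and sex. The contrast was the mean of both sexes of 129S1/SvImJ minus that of DBA/1J, and p-values were Benjamini-Hochberg adjusted at 0.05 over all tested genes. Replicate spread (biological coefficient of variation) was 11.5% in this fit on all 36 libraries. It was 12.7% in a fit on only the 12 libraries of both strains. CPM was computed from TMM-scaled totals. SE was derived from the fold change and F. Counts were simulated for this comparison, with 19539 genes in the test. Of these, 67 were changed by 1.5-fold and 67 by 2-fold, all drawn from genes of at least 2 CPM. The test recovered 86.6% and 98.5% of them. Genes not changed were set equal between the strains, and 10 of these were called, 5% of the calls. In the real data 40.7% of genes were called and libraries differed in their GC trend, so recovery there may differ. Recovery among genes below 2 CPM was not measured. Intervals and the floor of 3 counts cover counting error only. Coordinates are GENCODE M21 on GRCm38, promoter sequences RefSeq GRCm38.p6.

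Named genes were, among called genes of at least 2 CPM without overlap, pseudogenes and predicted models left out, the 12 per direction with the largest change and the 8 most abundant at 2-fold; up to 4 members per list with the smallest p; the known strain variants; 8 for the sexes; and dense windows. Of 243 such genes 197 were used, a subset chosen after values were seen. The members and gene lists were chosen with earlier results of these data known. Alternatives were DESeq2 1.42.0, limma 3.58.1 on FPKM, other filters and scalings, a correction for GC content and length, a replicate block and leaving out each library. Some results are not reported here.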

Additional observations from a re-analysis of the deposited data

Results flagged for a closer look

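In a group of 6 libraries, 1 library stood farther from the rest than Dixon's 95% critical value in 30 cases. These were found among the 197 named genes, each with 1 group per strain. Chance flags about 1 in 20 groups when the groups are independent. Genes of the same library can vary together, so that rate need not hold here. The part of chance in the 30 was not tested. DBA/1J male replicate 3 was the highest of its strain for Serpina3n (164 CPM), Neat1 (64.8), Olfml3 (24.2), Itgam (28.1), Col3a1 (12.9), C4b (47.2), C4a (10.7), Ifit3 (29.7), Gbp3 (10.7), Gbp2 (19.9) and Gpnmb (2.86). DBA/1J female replicate 3 was the highest for Vmn1r58 (112 CPM), Rpl30-ps10 (0.289) and Lefty1 (6.19), and the lowest for Cbr1 (19.8), Ndufb4 (35.8) and ENSMUSG00000072894 (2.31).

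In 129S1/SvImJ, male replicate 2 was the highest for n-R5s118 (0.102 CPM), Tmem245 (787), C4a (3.91) and Snord57 (5.43), and male replicate 3 for Chrna4 (21.7), while female replicate 2 was the lowest for Bok (28.3). DBA/1J female replicate 1 was the highest for Akr1c14 (0.679 CPM), Omp (5.64) and Stoml3 (4.29). In DBA/1J, male replicate 2 was the highest for Fam205c (0.0710 CPM) and the lowest for Gabra2 (117), male replicate 1 the highest for Ahr (13.5), and female replicate 2 the highest for Rgs14 (75.0).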

How the results depend on the processing

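The number of genes that differed was 8024. It ran from 7017 to 8439 over the 10 alternatives that kept all libraries of both strains. With 1 library left out it ran from 6605 to 8161. Not all of the same genes were called. Of 7829 calls with a known GC content, 6641 were called with the same sign after the GC and length correction. Of the 8024, 6109 and 6199 were so with limma on FPKM plus 0.1 and plus 1, and 7820 with DESeq2's own test. In males leaving out 1 library gave 3667 to 5350 genes, and in females 2223 (without DBA/1J female replicate 3) to 5047, with 2922 without 129S1/SvImJ female replicate 1. The count for a difference between sexes was 6 with no low-count filter and 0 to 1 with 1 library left out (1 without 129S1/SvImJ female replicate 1); the cause was not tested. Of 4317 values of the 197 named genes, 4253 kept direction and side of the threshold, 43 lost the call and 19 gained one. Dip2a reversed with limma on FPKM, to log2 -0.25 with 0.1 added and -0.23 with 1 added; the cause was not tested. Gm14513, listed at 0 FPKM, lost its call there. Calls higher in 129S1/SvImJ made up 52.3%. That share was 50.1% with DESeq2 size factors, 61.2% and 62.4% on FPKM and 63.3% after the GC and length correction. The count at 2-fold or more, 1277, was 1284 with DESeq2 size factors and 1160 after the GC and length correction. With limma on FPKM it was 814 with 0.1 added and 307 with 1 added.

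The levels gave no clear sign that replicate numbers pair the samples. Of 18 same-numbered pairs, 3 had deviations correlated above 0.1 (range -0.29 to 0.36). Of 12 libraries, 3 correlated best with their own number. Such correlations cannot show whether same-numbered libraries were handled together, since other variation between libraries enters them too. With the replicate block 7970 genes differed, and 8369 with the block and the correction together. Precision is limited at low counts, where 1 read decides whether a gene is listed at 0.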
